A study of Mus musculus with 6 samples.

Results

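Noto, Shh, Foxa2, Chrd, Nog and Foxj1 are the 6 genes described here, taken by symbol from a table of 35591 rows. They are genes of the notochord and of the node, an organiser of the early mouse embryo. The study asked how MommeD43, a point mutation in the chromatin protein SMCHD1 that was recovered in a mutagenesis screen, alters gene silencing. RNA-seq was made from tailbud with pre-somitic mesoderm, cut below the last segmented somite of embryos at embryonic day 8.5 with 8 somites, on the FVB/NJ strain. The groups were 3 Smchd1+/+ (WT) embryos and 3 Smchd1MommeD43/MommeD43 (MommeD43) embryos, 1 library each, with no treatment. Both genotypes carry no other allele that the labels name. In each genotype replicate 1 is male and replicates 2 and 3 are female. The labels give the same mother for both males and different mothers for the 4 females. The labels disagree on the tissue (their source field says NSCs), and the entry given by the titles, tailbud, was followed.

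The notochord is a rod of mesoderm that grows caudally from node-derived cells and patterns the neural tube and somites above and beside it. Noto is a homeodomain transcription factor of the node and posterior notochord, and Foxa2 a forkhead factor required to form both. Shh is the secreted ligand of notochord and floor plate, Chrd and Nog are secreted BMP antagonists, and Foxj1 is the forkhead factor of motile cilia, which in the node drive leftward flow. Shh and Foxa2 are also transcribed in floor plate and gut endoderm, so the 6 genes do not mark a single cell type.

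Libraries held 10957916 to 47298348 reads. The MommeD43 allele is a point mutation, so the Smchd1 transcript does not check the genotype. It was at 7.31 to 8.58 RPKM (reads scaled to exon length and library size) in WT and 7.15 to 7.94 in MommeD43. Of 13617 autosomal genes tested by limma, 0 (0%) passed an adjusted p of 0.05 and 327 (2.4%) had an unadjusted p under 0.05. In bulk tissue, fewer cells of a type and less RNA per cell cannot be told apart.

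The promoters of Noto, Foxa2 and Chrd were found in the RefSeq table of GRCm38.p6, and the 250 bases before each start are shown because they make up most of the window searched for motifs, which runs on for 50 bases after the start. Lower case marks bases outside a motif hit, and no capitals appear because no hit lay upstream of these starts.
Noto, chr6:85423636-85423885, plus strand: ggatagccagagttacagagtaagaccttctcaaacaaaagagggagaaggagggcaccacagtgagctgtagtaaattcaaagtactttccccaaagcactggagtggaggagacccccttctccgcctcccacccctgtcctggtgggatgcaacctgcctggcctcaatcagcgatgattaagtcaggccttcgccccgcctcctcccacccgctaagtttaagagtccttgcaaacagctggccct
Foxa2, chr2:148046970-148047219, minus strand: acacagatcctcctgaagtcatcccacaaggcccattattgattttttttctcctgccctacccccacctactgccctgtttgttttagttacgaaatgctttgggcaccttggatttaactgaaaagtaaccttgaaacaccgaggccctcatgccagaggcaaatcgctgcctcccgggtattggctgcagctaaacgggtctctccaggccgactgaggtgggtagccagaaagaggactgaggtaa
Chrd, chr16:20732877-20733126, plus strand: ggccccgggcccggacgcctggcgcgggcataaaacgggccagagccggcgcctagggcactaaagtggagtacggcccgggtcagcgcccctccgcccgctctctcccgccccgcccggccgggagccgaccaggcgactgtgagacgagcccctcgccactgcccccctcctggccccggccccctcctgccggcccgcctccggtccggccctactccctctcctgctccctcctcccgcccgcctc
Motifs were searched on both strands, from 250 bases before to 50 bases after the start, and counted in all 32851 promoters of the table. The forkhead motif was TGTTTAC and is held by 3.65% of promoters. The T-box motif was TCACACC and is held by 3.98%. For RFX factors, a part of the X-box was taken, GTTGCC, which is held by 12.5%. For GLI factors, a part of their site was taken, GACCACC, which is held by 2.80%. The TATA box was TATAAA and is held by 13.6%. No letters of one motif lie within another. Noto holds the GLI letters once, beginning at base 42 with the start counted as base 1, in gtaaggtGACCACCtc with the motif in capitals (chr6:85423920-85423935, plus strand). The Foxa2 start shown and Chrd hold none of the 5. A match is a description of letters, and no match says nothing about a factor. Chrd lies in a GC-rich promoter of 78.0% GC with 28 CpG, against medians of 52.4% and 6 over all promoters. Noto is at 54.8% with 5 CpG, and the Foxa2 start shown, which is the start of the gene in the deposited table, at 50.8% with 6. RefSeq lists 3 starts for Foxa2. The other two lie 1021 and 1505 bases further into the gene, at 67.2% GC with 20 CpG and at 54.4% with 13, and the last holds the TATA letters once, on the opposite strand 208 bases before it.

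Noto had the highest mean level per exon length of the 6 members in WT, and it was almost absent from 1 of the 3 MommeD43 libraries while the other members were present there. Noto lies on chromosome 6 (85423886 to 85428877, plus strand, GRCm38). Its level was 3.44, 5.58 and 6.23 RPKM in WT replicates 1, 2 and 3. In MommeD43 it was 5.24 and 5.17 RPKM in replicates 1 and 2 and 0.0954 in replicate 3. These levels rest on 202, 211 and 166 reads in WT and 92, 392 and 2 in MommeD43. The other 5 libraries lie between 3.44 and 6.23 RPKM, and only MommeD43 replicate 3 lies below them. The exact 95% interval of that library runs from 0.0116 to 0.345 RPKM and covers counting error only, as all counting intervals here do, and 3 reads in that library would be 0.143 RPKM. At the rate of the other 5 libraries 103 reads would fall there, so the level was 51.5-fold lower with an exact 95% interval of 14.2 to 426.

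The group means of Noto were 5.08 ± 1.46 RPKM in WT and 3.50 ± 2.95 in MommeD43 (SD, n = 3). The log2 fold change was -1.84 with SE 1.36 and a 95% interval of -4.98 to 1.29, adjusted p 0.999 by limma. The groups overlap, since the MommeD43 replicates 1 and 2 lie between the WT libraries. Without MommeD43 replicate 3 the log2 fold change was 0.08 with SE 0.24, so that library alone gives the negative value. Noto had an SD of 2.35 on the log2 scale over the 6 libraries, and 11 of 13617 tested genes (0.0808%) had a larger one, where the median of all genes was 0.14.

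**Figure D1:**
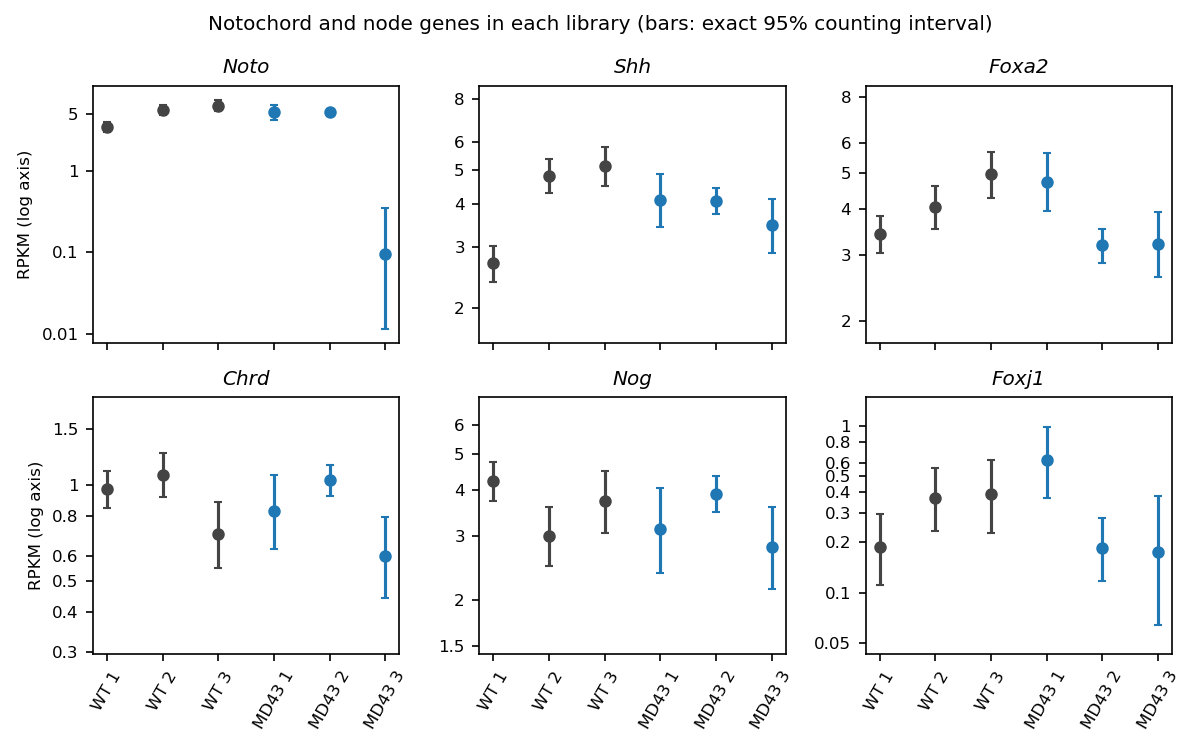
RPKM of the 6 members (log axis) in each library, grey for WT and blue for MommeD43 (MD43), with bars giving exact 95% counting intervals. Noto stands between 3.44 and 6.23 in 5 libraries and at 0.0954 in MommeD43 replicate 3, while Foxj1 varies 3.58-fold and the other 4 genes 1.51- to 1.90-fold between their lowest and highest library.

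The other members were much nearer their usual level in that library. Shh, Foxa2, Nog and Chrd were 1.14-fold (0.954 to 1.38), 1.16-fold (0.946 to 1.44), 1.34-fold (1.03 to 1.76) and 1.62-fold (1.21 to 2.20) below the rate of the other 5 libraries, and Foxj1 1.60-fold (0.709 to 4.46). MommeD43 replicate 3 was the lowest library for 4 of the 6 members and below the median for 6 of 6. Both counts include Noto, for which this library was singled out. WT replicate 1 and MommeD43 replicate 2 were each below the median for 4 of 6. The same shares over all tested genes were not counted. Set against Shh, Noto was at 1.28, 1.16 and 1.22 times its RPKM in WT and at 1.28 and 1.27 times in MommeD43 replicates 1 and 2, and at 0.0276 times in replicate 3.

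**Figure D2:**
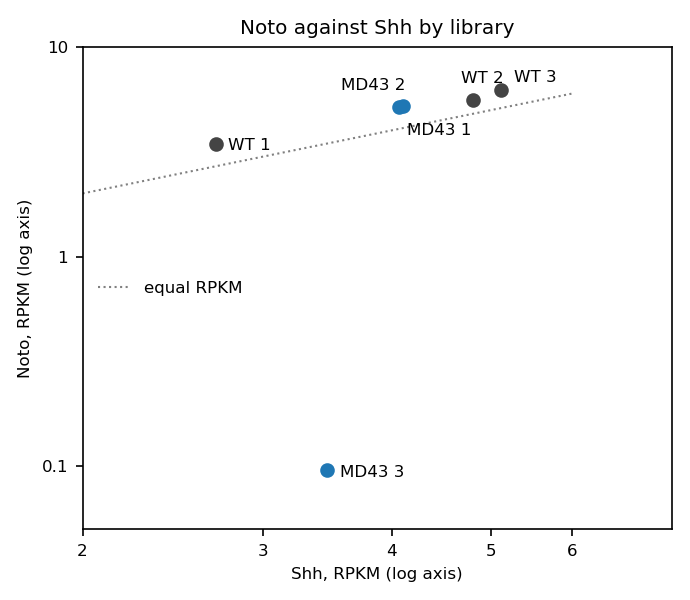
Noto RPKM against Shh RPKM in each library, both axes log, with a dotted line of equal RPKM. The other 5 libraries lie just above the line with Noto at 1.16 to 1.28 times Shh, and MommeD43 replicate 3 lies at 0.0276 times.

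The nearest tested genes on either side of Noto were present in MommeD43 replicate 3. Smyd5, a methyltransferase gene that begins 3112 bp after Noto, was at 20.8 to 24.8 RPKM in all 6 libraries (log2 fold change 0.02). Rab11fip5, a membrane-trafficking gene 49252 bp before it, was at 0.836 RPKM there and 0.369 to 0.688 elsewhere (log2 fold change 0.06, SE 0.36).

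Noto was one of 14 genes (0.103% of 13617) that were at least 8-fold below the lowest of the other 5 libraries in MommeD43 replicate 3. The same measure gave 4 genes for WT replicate 1, 1 for WT replicate 2 and 0 for WT replicate 3 and MommeD43 replicates 1 and 2. In this measure a gene without a read counts as 0.9 read. The 3 genes most like Noto were Lmx1a (0.53), Apoa2 (0.81) and Spp2 (0.97), by the root mean square difference of centred log2 RPKM over 6 libraries. They were picked from 34 genes with an SD of at least 0.8 of that of Noto. Lmx1a, a LIM homeodomain transcription factor, stood at 0.466, 0.910 and 0.850 RPKM in WT and 0.376, 0.548 and 0.0225 in MommeD43, where the last is 1 read. Apoa2 is an apolipoprotein of the liver and yolk sac, and it was at 0 reads there.

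Other notochord and node genes were looked at beside it. Of 20 listed, 17 were tested, 9 with a higher and 8 with a lower fitted value in MommeD43 (median log2 fold change 0.07), and 0 of 17 had an unadjusted p under 0.05. T, the notochord and tailbud T-box factor, was at 141 RPKM in MommeD43 replicate 3, within the range of 117 to 188 of the other libraries. Foxa1 was at 3.31 there, within 2.31 to 3.98. Krt8 and Krt18, keratins of notochord and epithelium, were at 181 and 182 RPKM there, against 126 to 185 and 119 to 166 elsewhere. Pkd1l1, Nodal, Lefty2, Dand5, T, Foxa1 and Cer1 were singled out after their values were seen. Pkd1l1, a polycystin of node crown cells, was at 0.140 RPKM in MommeD43 replicate 3 and at 0.468 to 0.937 elsewhere. Nodal, the left-right signalling ligand, went the other way, at 1.82 against 0.218 to 0.632. Lefty2, its antagonist, was at 10.9 against 0.0649 to 5.62, and Dand5, a Nodal antagonist of crown cells, was at 0.820, within 0.707 to 1.27. Cer1 had no read in any library.

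**Figure D3:**
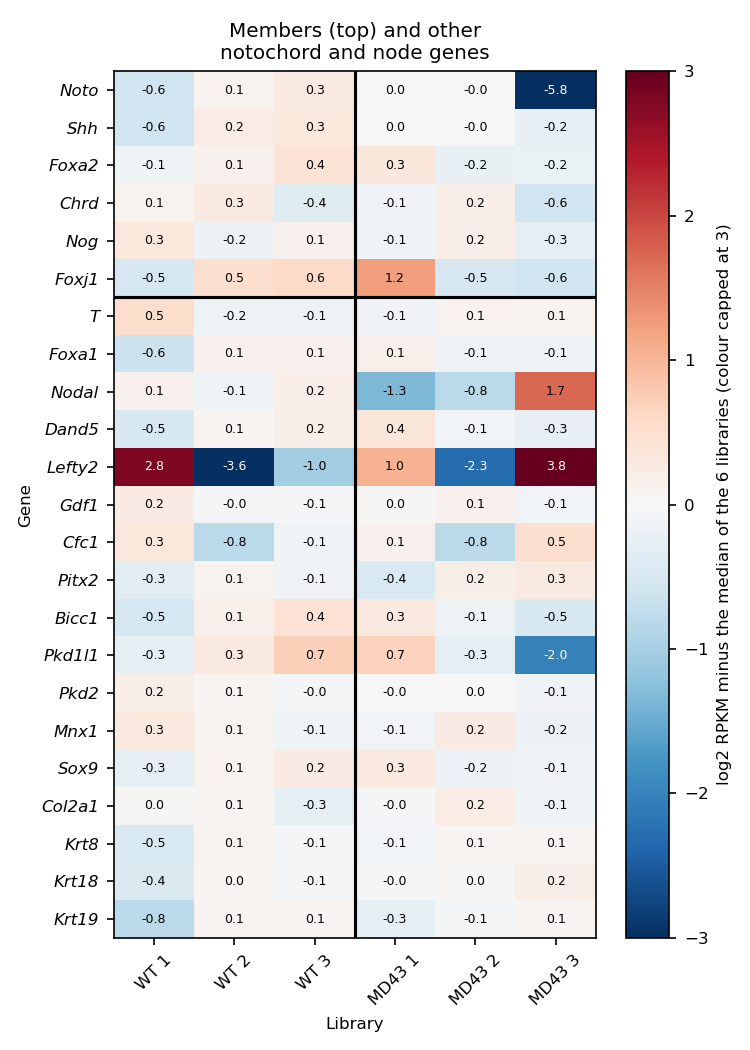
log2 RPKM of the 6 members (above the line) and 17 other notochord and node genes, minus the median of the 6 libraries, with colour capped at 3. In MommeD43 replicate 3 Noto is 5.8 below its median and Pkd1l1 2.0 below, whereas Nodal is 1.7 and Lefty2 3.8 above.

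Foxa2 and Shh, the factor and the ligand, differed between the genotypes by less than the spread between libraries. Foxa2 (chromosome 2, 148042877 to 148046969, minus strand) was at 3.42, 4.04 and 4.95 RPKM in WT and 4.74, 3.19 and 3.22 in MommeD43. Shh (chromosome 5, 28456815 to 28467256, minus strand) was at 2.70, 4.80 and 5.11 RPKM in WT and 4.10, 4.07 and 3.46 in MommeD43. The reads were 297, 226 and 195 in WT and 123, 358 and 100 in MommeD43 for Foxa2, and 281, 323 and 242 and 128, 548 and 129 for Shh. WT replicate 1 is the lowest library for Shh and MommeD43 replicate 2 for Foxa2, and the groups overlap for both genes. The means were 4.14 ± 0.769 and 3.72 ± 0.882 for Foxa2, and 4.20 ± 1.32 and 3.88 ± 0.361 for Shh (SD, n = 3). The log2 fold changes were -0.16 with SE 0.19 (95% interval -0.60 to 0.28) and -0.07 with SE 0.23 (-0.60 to 0.46), each at an adjusted p of 0.999 by limma. These intervals bound a change of either gene to less than 1 on the log2 scale, in either direction. Genes of the opposite strand, Gm26894 and 9530036O11Rik, overlap 28.3% of the exon length of Shh, and whether counting used strand is not given in the sources used here.

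Nearest to Foxa2 lies the lincRNA 9030622O22Rik, 2674 bp away, at 0.114, 0.529 and 0.358 RPKM in WT and 0.597, 0.402 and 0.0908 in MommeD43. On the other side lies Thbd, the thrombomodulin gene 357497 bp away, whose log2 value was higher by 1.13 in MommeD43 (limma, adjusted p 0.999). The neighbours of Shh, Rbm33 and Rnf32, had -0.05 and 0.23. The 3 genes most like Foxa2 in the 6 libraries were Nup210l (root mean square difference 0.050), Gm44641 (0.066) and Hecw2 (0.089), of which Gm44641 shares 73.7% of its exons with another gene on its own strand and is uncertain. Those most like Shh were Tiparp (0.070), Rcan3 (0.076) and Myof (0.077). The pools they were picked from held 4220 genes for Foxa2 and 3425 for Shh. How near the best matches would be by chance was not tested.

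The Hedgehog pathway, which Shh activates, was read from 19 other genes. Of 17 tested, 9 had a higher and 8 a lower value in MommeD43 (median 0.02). By limma 0 passed an adjusted p of 0.05. An unadjusted p under 0.05 was reached by 1 (Gli2), against 2.4% of all genes. Gli2, a transcriptional effector, was at 6.09, 5.83 and 5.84 RPKM in WT and 5.10, 5.07 and 5.37 in MommeD43. The groups do not overlap, as for 483 genes (3.55%) that lay below WT throughout and 481 (3.53%) that lay above. Ptch1, the receptor and a readout of the pathway, was at 16.0 to 20.7 RPKM in WT and 16.1 to 20.99 in MommeD43. Smo, the transducer, was at 41.0 to 43.2 and 42.8 to 43.1 RPKM.

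Chrd and Nog, the BMP antagonists, also differed between the genotypes by less than the spread between libraries. Chrd (chromosome 16, 20733127 to 20742384, plus strand) was at 0.973, 1.08 and 0.702 RPKM in WT and 0.831, 1.03 and 0.598 in MommeD43. Nog (chromosome 11, 89300638 to 89302332, minus strand, a single exon block) was at 4.22, 3.00 and 3.73 RPKM in WT and 3.12, 3.89 and 2.79 in MommeD43. The reads were 223, 159 and 73 in WT and 57, 306 and 49 in MommeD43 for Chrd, and 262, 120 and 105 and 58, 312 and 62 for Nog. MommeD43 replicate 3 is the lowest library for both, and the groups overlap. The means were 0.917 ± 0.193 and 0.821 ± 0.218 for Chrd and 3.65 ± 0.616 and 3.27 ± 0.563 for Nog (SD, n = 3). The log2 fold changes were -0.17 with SE 0.27 (95% interval -0.79 to 0.45) for Chrd and -0.16 with SE 0.17 (-0.55 to 0.23) for Nog, each at an adjusted p of 0.999 by limma. Chrd was at 0.188 to 0.359 times the RPKM of Nog in the 6 libraries. Dmac2l (0.059), Dclk1 (0.072) and Nr4a2 (0.077) were most like Chrd, of 3411 candidates. Gad1 (0.062), Syk (0.063) and Zfp619 (0.068) were most like Nog, of 5012. The neighbours had log2 fold changes of -0.03 (Polr2h) and 0.03 (Ephb3) at Chrd, and -0.12 (Dgke) and -0.07 (Pctp) at Nog.

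Of 22 BMP pathway genes, 20 were tested, 10 with a higher and 10 with a lower value in MommeD43 (median 0.01), 0 with an adjusted p under 0.05. Bmp4, the ligand, was at 28.2, 27.6 and 26.4 RPKM in WT and 28.8, 30.6 and 32.9 in MommeD43. It was the 1 of the 20 with an unadjusted p under 0.05 by limma, against 2.4% of all genes. Its groups do not overlap, as for 481 genes (3.53%) that lay above WT throughout. Id1 and Id3, response genes, were at 83.3 to 94.0 and 89.0 to 95.04 RPKM in WT and 87.9 to 96.9 and 84.0 to 96.7 in MommeD43.

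Foxj1 was the scarcest member, on 105 reads in all. It was at 0.187, 0.371 and 0.390 RPKM in WT and 0.626, 0.185 and 0.175 in MommeD43 (chromosome 11, 116330704 to 116335399, minus strand), on 18, 23, 17, 18, 23 and 6 reads. The means were 0.316 ± 0.112 and 0.329 ± 0.258 (SD, n = 3), so the mean RPKM was higher in MommeD43 while the mean of log2 values was lower. The log2 fold change was -0.14 with SE 0.55 (95% interval -1.41 to 1.13), adjusted p 0.999 by limma. The highest of the 6 libraries is MommeD43 replicate 1 and the lowest MommeD43 replicate 3, so the groups overlap. Its neighbours Exoc7 and Rnf157 had log2 fold changes of -0.06 and -0.13. Of 17 listed motile cilium genes 12 were tested, 4 with a higher and 8 with a lower value (median -0.14), 0 with an unadjusted p under 0.05. Rfx3 and Ccdc40, the highest of these, were at 3.70 to 5.20 and 1.60 to 1.72 RPKM in WT and 3.95 to 4.34 and 1.33 to 1.72 in MommeD43.

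By RPKM, Foxj1 ranked the libraries as the summed yolk sac markers did. The counting intervals of Foxj1 overlap between libraries next to each other in this order, so single steps of it are not resolved. They were 0.0641 to 0.380 RPKM in MommeD43 replicate 3, 0.118 to 0.278 in MommeD43 replicate 2 and 0.111 to 0.296 in WT replicate 1. The summed RPKM of 7 of 7 tested yolk sac markers was 130, 240 and 267 in WT and 414, 48.8 and 36.8 in MommeD43, with no marker at 0 in a library. Genes most like Foxj1, of 930 candidates, were Dab2 (root mean square difference 0.15), an endocytic adaptor, Myo6 (0.18), a myosin, and Sod3 (0.21), a secreted superoxide dismutase. The part of yolk sac tissue in the Foxj1 level was not tested. Noto and the yolk sac sum were both lowest in MommeD43 replicate 3, at 0.0954 RPKM and 36.8, while their order over the other libraries differed. MommeD43 replicate 2 had a yolk sac sum of 48.8 and Noto at 5.17 RPKM, and WT replicate 1 had 130 and 3.44. The part of yolk sac tissue in the Noto level was not tested. Blood markers summed to 5.43 to 469 RPKM in WT and 13.4 to 209 in MommeD43. Of 5 blood markers 3 were tested, and all 3 had a lower value in MommeD43, as did all 7 yolk sac markers, 0 of either with an unadjusted p under 0.05.

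**Figure D4:**
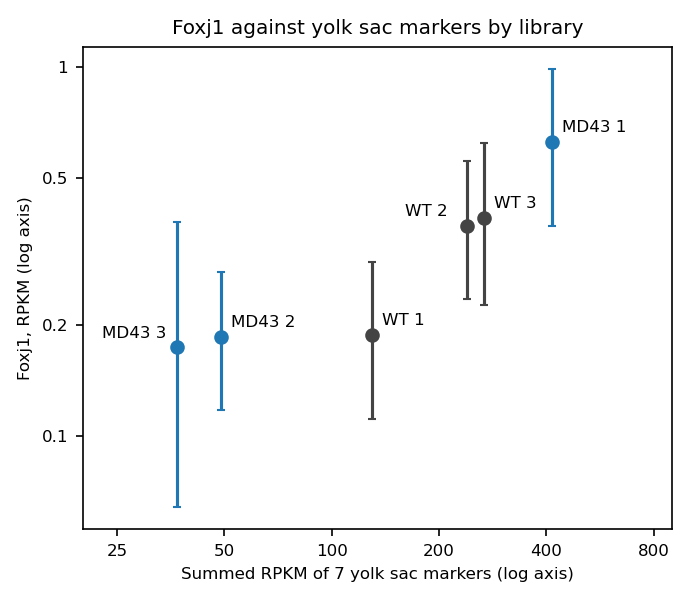
Foxj1 RPKM, with exact 95% counting intervals, against the summed RPKM of 7 yolk sac markers in each library, both axes log. Foxj1 runs from 0.175 at a sum of 36.8 to 0.626 at a sum of 414.

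Marker sums for tissue that also carries these genes were less spread. Gut endoderm markers summed to 129 to 133 RPKM in WT and 115 to 141 in MommeD43. Cldn6, at 66.6 to 76.7 RPKM, made up the larger part of this sum, and single markers could vary more. Hnf4a was at 1.14, 1.68 and 2.38 RPKM in WT and 3.31, 0.482 and 0.522 in MommeD43. Sox17 was at 2.18 to 3.14 RPKM in all libraries. These markers were singled out after their values were seen. Floor plate markers summed to 4.70 to 5.17 and 3.85 to 5.93 RPKM, with 2 of 7 at 0 in some library. Tailbud and presomitic mesoderm markers, 11 of 11 tested, summed to 542 to 718 and 549 to 657 RPKM, with none at 0 in any library. Hes7, a clock gene, was the 1 of them with an unadjusted p under 0.05 by limma (log2 fold change 0.47, adjusted p 0.999), against 2.4% of all genes. Neural tube markers summed to 17.9 to 20.2 and 18.0 to 19.7 RPKM, and somite markers to 1.71 to 2.44 and 1.90 to 2.38, where 1 of 5 somite markers was at 0 in every library.

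All 6 members had a log2 fold change below 0 (median -0.16), where 49.0% of 13617 genes were negative and the median was 0.00. Without MommeD43 replicate 3 the sign turned for 4 of the 6, to 0.08 for Noto, 0.014 for Shh, 0.039 for Chrd and 0.18 for Foxj1, while Foxa2 and Nog stayed below 0. The sign also turned without WT replicate 2 or WT replicate 3 for Shh (0.059 and 0.10) and Foxj1 (0.013 and 0.048), and without MommeD43 replicate 2 for Foxj1 (0.14). None of the 6 had an unadjusted p under 0.05, against 2.4% of all genes, and none had groups that did not overlap. With the 4 females alone, 3 of the 6 did (Shh, Foxa2 and Foxj1, all lower in MommeD43), against 8.72% of all genes, and their adjusted p by limma was 0.540, 0.524 and 0.555. Without WT replicate 1, the WT male, Shh did as well (log2 fold change -0.36, adjusted p 0.695), against 6.93% of all genes. The order of the levels in WT was Noto, Shh, Foxa2, Nog, Chrd and Foxj1. The first 4 overlap in range (Noto 3.44 to 6.23, Shh 2.70 to 5.11, Foxa2 3.42 to 4.95, Nog 3.00 to 4.22), whereas Chrd (0.702 to 1.08) and Foxj1 (0.187 to 0.390) lie apart from them and from each other.

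**Figure D5:**
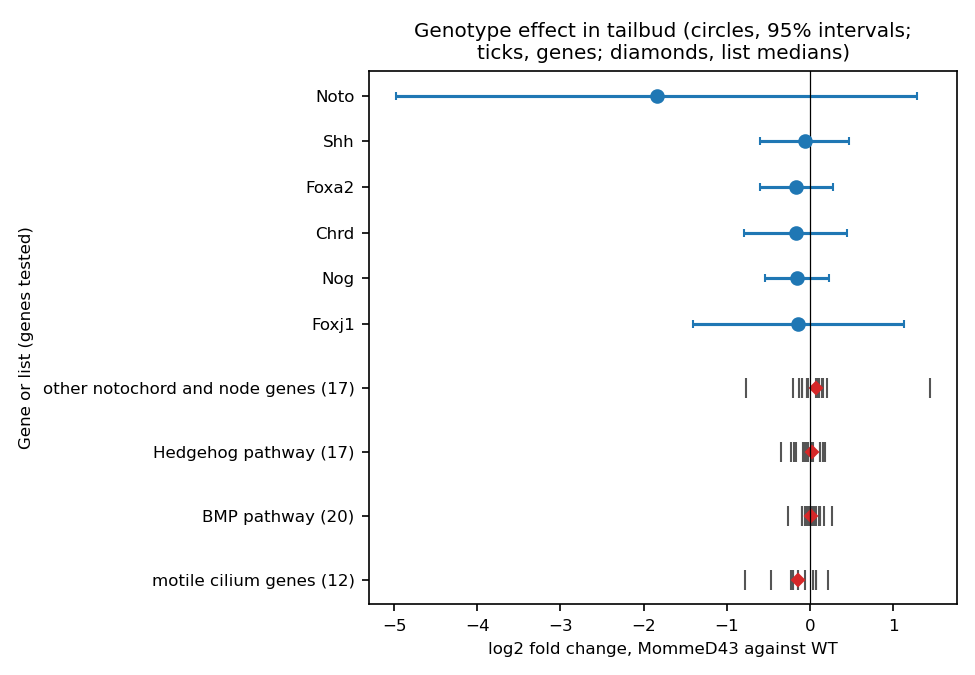
log2 fold change of MommeD43 against WT, as circles with 95% intervals for the 6 members and as ticks for single genes of 4 lists, with red diamonds at list medians. The interval of every member includes 0, and Noto has the widest, from -4.98 to 1.29.

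For Shh, Foxa2 and Foxj1, and also for Noto, the male pair and the females differed in the sign of the genotype difference. None of these contrasts passed the adjusted test. How many of all tested genes differ in sign in this way was not counted. In the male pair, MommeD43 replicate 1 against WT replicate 1, log2 fold changes were 0.61 for Shh, 0.47 for Foxa2 and 1.74 for Foxj1. In the 4 females they were -0.40 for Shh, -0.48 for Foxa2 and -1.08 for Foxj1. The difference between male and female effects had an adjusted p of 0.192, 0.245 and 0.186 by limma, against 37 of 13617 genes (0.272%) that passed 0.05. With 1 male per genotype, all of the spread in this fit (2 residual degrees of freedom) comes from the females, and the males are assumed to vary as they do. The summed yolk sac markers moved with the same signs, from 130 RPKM in WT to 414 in MommeD43 in the male pair, and from 240 and 267 in WT females to 48.8 and 36.8 in MommeD43 females. Their part in the difference was not tested. In addition, the male pair is also the pair with a common mother, so sex and mother cannot be told apart. Noto had 0.61 in the male pair and -3.07 in females, where MommeD43 replicate 3 is 1 of the 2 MommeD43 libraries (adjusted p 0.635), Nog -0.43 and -0.02 (0.662), and Chrd -0.23 and -0.14 (0.968).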

How the data were processed

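The deposited table holds log2 RPKM per gene for 6 tailbud libraries, which the authors made with SeqMonk from reads trimmed by Trim Galore 0.4.4 and mapped by HISAT2 2.0.5 to GRCm38.p6 (submitters' processing notes and the study's methods). The study's methods give 100 ng total RNA and either the TruSeq RNA or the TruSeq stranded mRNA kit. They do not say which kit was used for tailbud. Whether counting used strand is not given in the sources used here. Groups, replicate numbers and sexes came from the labels. The number of columns left unassigned was 0.

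Exon lengths were taken from GENCODE M21 for 35555 of 35591 rows. Whole reads were recovered from RPKM, exon length and library total: 98.4% of 76780 values were whole within 0.02. Genes without a read sit at 0.9 read in the table, and 14632 genes had none. Library totals were 10957916 to 47298348 reads. Exact 95% intervals (Clopper-Pearson) were computed from reads, and 3 reads were taken as the floor.

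Autosomal genes with at least 3 libraries at a CPM of 0.497 and 15 reads in all were tested (13617) with limma 3.58.1 (R 4.3.3) on log2 RPKM with a trend, 3 against 3, with Benjamini-Hochberg adjustment over all. The fit was tested on simulated data of 13617 genes, where 91.5% of 200 genes changed 2-fold were recovered. There were 11 false calls among the genes left unchanged. Beside counting noise, every simulated gene had the same spread, set from the median of all genes. The recovery therefore does not carry over to genes that vary more, as the members do. Members, lists and the rule for named genes were chosen with earlier results of these data known. Named genes were the members, list genes with an unadjusted p under 0.05 and the 2 most abundant of each list, the 3 genes most like each member and the nearest tested gene on each side. Each library is a separate embryo.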

Additional observations from a re-analysis of the deposited data

How the results depend on the processing

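Over 16 alternative settings, none of 94 values of the members passed an adjusted p of 0.05, the lowest being 0.524, and 4 had an unadjusted p under 0.05 (Shh, Foxa2 and Foxj1 in females alone, and Shh without WT replicate 1). Leaving out each library in turn gave log2 fold changes of -2.81 to 0.079 for Noto, -0.36 to 0.10 for Shh, -0.36 to 0.039 for Chrd and -0.74 to 0.18 for Foxj1, all of which changed sign in some; Noto was 0.079 without MommeD43 replicate 3, while Foxa2 (-0.35 without MommeD43 replicate 1 to -0.025 without WT replicate 3) and Nog (-0.29 without WT replicate 2 to -0.045 without WT replicate 1) kept their sign. Foxj1 was 0.000339 with log2(RPKM + 1), and Nog 0.000727 with voom and sample weights on recovered reads. In females alone 10 genes were called, none a member, against 0 in all 6 libraries (1188 against 327 at an unadjusted p under 0.05). Samples with the same replicate number share sex and somite stage, and those numbered 1 also share a mother, but the deviations of same-numbered samples correlated at -0.03, 0.17 and -0.17, so the pairing was kept as an alternative. With a replicate block 0 genes were called (307 at an unadjusted p under 0.05), and Noto was at -1.84 with SE 1.23. At least 1 RPKM in 3 libraries left no value for Chrd and Foxj1. The depth limits Foxj1 (6 to 23 reads a library).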

Other observations

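Beside Noto, Lmx1a, Apoa2 and Spp2, the 14 genes that MommeD43 replicate 3 held at least 8-fold below every other library included Kcnk2, Cd46, Dlgap2 and Slc2a2, each with no read there. A gene without a read was held at 0.9 read, so its fold rests on that value. In the other libraries Cd46 had 13 to 30 reads and Kcnk2 9 to 61. These were chosen after their values were seen. Of the 14 genes, 5 lie on chromosome 1 (Spp2, Lmx1a, Apoa2, Kcnk2 and Cd46), where 5.96% of the tested genes lie. Whether this exceeds chance was not tested. Slc2a2, a glucose transporter of liver and yolk sac, was at 0.107 RPKM in MommeD43 replicate 2 and 0.569 to 1.73 in the other 4 libraries. Kcnk2, a potassium channel gene, was at 0.160 to 0.261 RPKM in the other 5.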
